A study of Sus scrofa with 16 samples.

Results

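The enzymes described here are 9 genes of drug and xenobiotic metabolism in the small intestine of preterm piglets, chosen by symbol on a porcine Affymetrix expression array. They are the cytochrome P450 genes CYP3A29, CYP2C49, CYP2C32, CYP2J34 and CYP27A1, the flavin-containing monooxygenase FMO1, the epoxide hydrolase EPHX1, the glutathione transferase GSTO1 and the sulfotransferase SULT1E1. The 9 genes are covered by 13 of the 23999 probe sets left after control probe sets were set aside, and they are 9 of the 6765 genes that a probe set names alone. Crossbred piglets of 2 sows, from Landrace, Large white and Duroc stock, were born by caesarean section on gestation day 105, received parenteral nutrition with small enteral amounts, were moved to enteral feeding alone on day 3, and were euthanised on day 5. The treated piglets were given ampicillin, gentamycin and metronidazol by mouth and by intramuscular injection from birth until tissue was taken, at 2 times a day. The control piglets were given saline in the same way, although some sample names call them untreated. Of the 11 treated and 13 control piglets of the study, 9 were followed on 16 arrays in 4 groups of 4: distal intestine with antibiotics (piglets 85, 86, 87 and 95), distal intestine of controls (83, 88, 89 and 92), proximal intestine with antibiotics (86, 87, 95 and 98) and proximal intestine of controls (83, 88, 89 and 92). The number in each sample name was read as the piglet's, so that 3 treated and 4 control piglets had both segments.

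Foreign compounds that enter the gut wall are commonly oxidised or hydrolysed first, by cytochrome P450 enzymes, flavin monooxygenases and epoxide hydrolases, and are then joined to glutathione, sulfate or glucuronic acid by transferases, which makes them easier to excrete. In the small intestine this work is done mainly by the absorptive epithelial cells, and P450 enzymes of the CYP3A and CYP2C families are known in humans to be more abundant in the upper than in the lower small intestine. The same enzyme families also act on the body's own steroids, bile acids and fatty acids.

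Values are the authors' background-corrected and normalised (GCRMA) signals on a log2 scale, so that a difference of 1 is a doubling. Tests were limited to the 11538 probe sets with a log2 value over 5 on 4 or more arrays. All 9 genes had such a probe set, but the arrays that carried them differed. CYP3A29, CYP2J34 and GSTO1 were above that level on all 16 arrays and CYP2C49 on 13. EPHX1 passed through 8 arrays, CYP27A1 through 5 and CYP2C32 through 4, all of them proximal, and SULT1E1 through 5 arrays, all distal. FMO1 passed through 8 arrays, all of control piglets. Passing the filter thus already asked for a difference between segments in 4 genes and between treatments in FMO1. The other CYP27A1 probe sets, 2 in number, stayed at the lowest value of the table, 2.14, on all arrays. A change is called where the limma p-value, adjusted by the Benjamini-Hochberg method for all 11538 probe sets, is under 0.05.

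The tissue carried a strong epithelial signal on every array: the 11 annotated of 13 enterocyte markers averaged 12.62 to 13.01 in the antibiotics distal group, 12.90 to 13.67 in control distal, 13.29 to 14.14 in antibiotics proximal and 12.33 to 13.64 in control proximal tissue. Of 8 hepatocyte markers 6, ALB among them, were at or below the filter level on every array, as were all 3 annotated pancreatic markers. With 4 arrays per group, the number of arrays limits how precise each difference can be. The labelled segment was checked with GATA4, a transcription factor of the proximal epithelium, which reached at most 2.80 on distal arrays and at least 3.79 on proximal ones, and with FABP6, the ileal bile acid binding protein, which was 7.97 to 10.64 in antibiotics distal, 6.64 to 11.03 in control distal and 2.28 to 2.33 in antibiotics proximal tissue. In control proximal tissue FABP6 was 2.32, 3.49 and 2.33 in piglets 83, 89 and 92 but 7.40 in piglet 88. Of 8 listed distal markers 2 were annotated, FABP6 among them. The mean of these 2 was 8.95 to 10.44 in antibiotics distal, 8.17 to 9.44 in control distal and 4.41 to 5.90 in antibiotics proximal tissue. In control proximal tissue it was 2.43, 7.71, 5.92 and 3.00 in piglets 83, 88, 89 and 92. By this mean piglet 88 was again the highest, but the 4 controls were spread more evenly than by FABP6 alone. Proximal markers did not set piglet 88 apart as FABP6 did. The mean of the 4 annotated of 7 listed was 11.07 in piglet 88, above the 10.33, 10.53 and 10.51 of piglets 83, 89 and 92. LEAP2, a further proximal marker, was 12.13 and 11.83 in the distal arrays of control piglets 83 and 88, against 3.76 and 7.57 in the other 2 controls. Results that rest on the proximal array of piglet 88, or on the distal arrays of piglets 83 and 88, are therefore given with and without them.

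**Figure D1:**
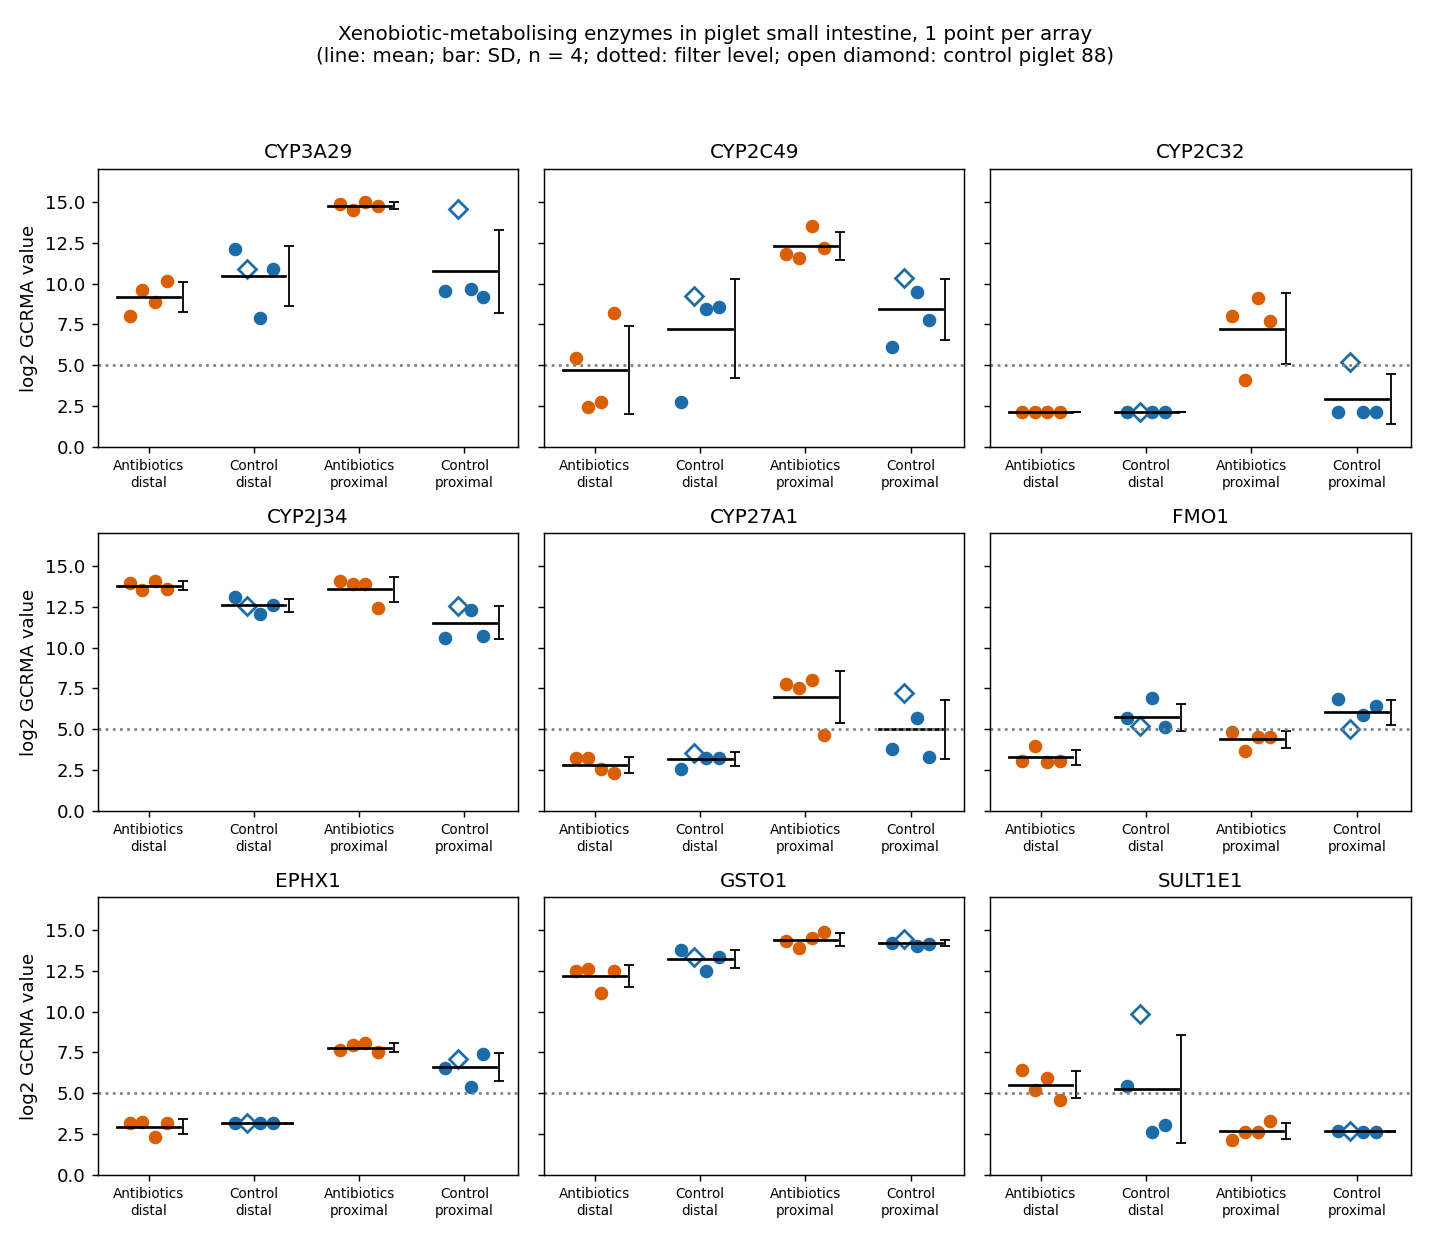
Log2 GCRMA value (y axis) of each enzyme on each of the 16 arrays, by group (x axis). Points are arrays, horizontal lines group means and bars the SD over 4 arrays; the dotted line is the filter level of 5 and the open diamond is control piglet 88. For CYP3A29 the 4 antibiotics proximal arrays lie between 14.48 and 14.97, with piglet 88 at 14.54 and the other 3 control proximal arrays between 9.18 and 9.68.

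In the proximal intestine no enzyme passed the test over all 16 arrays. Every antibiotics value of CYP2C49 and EPHX1 lay above all controls, and every FMO1 value lay below all controls. Such a separation was seen in 3.05% of all tested probe sets. CYP3A29, CYP2C32 and CYP2J34 overlapped between the groups through control piglet 88, which read 14.54, 5.19 and 12.55. Their antibiotics values lay above those of control piglets 83, 89 and 92 only. By limma 0 of the 9 genes were called, against 0.147% of all tested probe sets, and 7 of the 9 had an unadjusted p under 0.05. Of the 8 genes measurable in at least one group, 7 had the higher mean with antibiotics and FMO1 the lower. The median difference of the 9 genes, antibiotics minus control, was 2.00 on the log2 scale, against -0.07 over all tested probe sets. With values below the filter level raised to it, the medians were 1.36 over the 9 genes and -0.06 over all tested probe sets. In whole tissue, fewer cells of a type and less RNA per cell cannot be told apart, and this holds for every difference below. Except where piglet means are compared, each p-value rests on a spread pooled over the 4 groups, so distal arrays enter proximal tests. Of the 9 piglets 7 count with both segments. CYP2C32 had an SD of 0 in both distal groups, against 2.18 (antibiotics) and 1.52 (control) in proximal tissue. For EPHX1 the SD was 0.43 distal and 0.25 proximal with antibiotics, and 0.02 and 0.88 in controls. Here and below, the SEs and p-values of these genes thus do not measure only the spread between the piglets compared.

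CYP3A29, a porcine enzyme of the family that contains human CYP3A4 and that oxidises a wide range of drugs, had proximal values of 14.85, 14.48, 14.97 and 14.74 in antibiotics piglets 86, 87, 95 and 98, against 9.55, 14.54, 9.68 and 9.18 in control piglets 83, 88, 89 and 92. The antibiotics piglets were tightly grouped, 3 controls lay far below them, and control piglet 88 lay among them. The means were 14.76 ± 0.21 with antibiotics and 10.74 ± 2.55 in controls (SD, n = 4 each), a difference of 4.02 (SE 1.02, limma adjusted p = 0.131).

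CYP2C49, a member of the CYP2C family of drug-oxidising enzymes, was 11.80, 11.59, 13.50 and 12.19 in the proximal intestine of antibiotics piglets 86, 87, 95 and 98, against 6.13, 10.32, 9.51 and 7.75 in control piglets 83, 88, 89 and 92. All 4 antibiotics values were above all 4 control values. The difference of 3.85 did not pass the test (SE 1.41, limma adjusted p = 0.277). CYP2C32, of the same family, was 7.99, 4.09, 9.11 and 7.70 with antibiotics, while the control value was 5.19 in piglet 88 and 2.14, the lowest value of the table, in the other 3. Its difference of 4.32 (SE 0.84, limma adjusted p = 0.0555) lay just outside the threshold. That SE also draws on the distal groups, whose SD was 0, so nothing is read from how close it lay. A second CYP2C32 probe set, too dim to be tested, rose above the filter level on 3 arrays only, those of antibiotics piglets 87 (5.67), 95 (8.15) and 98 (6.02) in proximal tissue.

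The CYP2C readings are not wholly separate. One further probe set is annotated to CYP2C49, CYP2C36, CYP2C34 and CYP2C32 together, and it read 12.50, 11.47, 13.67 and 12.21 in antibiotics proximal tissue, against 5.12, 11.08, 8.27 and 6.56 in control proximal tissue (difference 4.71, 95% interval 1.52 to 7.89, limma adjusted p = 0.207). In RefSeq's pig annotation (assembly Sscrofa11.1) CYP2C36, CYP2C34 and CYP2C32 follow one another with 0 protein-coding genes between neighbours, 1 lies between CYP2C32 and CYP2C49, and CYP3A29 is next to CYP3A46. Sharing of signal between such neighbouring genes of a family was not tested, because no probe sequences were used here.

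CYP2J34 belongs to the CYP2J family, whose human member epoxidises arachidonic acid. It was strongly expressed on every array: 14.08, 13.90, 13.89 and 12.44 in the proximal intestine of antibiotics piglets 86, 87, 95 and 98, against 10.60, 12.55, 12.29 and 10.68 in control piglets 83, 88, 89 and 92. The groups overlapped only through antibiotics piglet 98 and control piglet 88. The means were 13.58 ± 0.76 with antibiotics and 11.53 ± 1.03 in controls (SD, n = 4 each), a difference of 2.04 (SE 0.45, limma adjusted p = 0.0865). CYP27A1, the mitochondrial sterol hydroxylase of bile acid synthesis, was 7.80, 7.52, 8.03 and 4.61 in the same antibiotics piglets, against 3.81, 7.19, 5.70 and 3.27 in the controls. Piglet 98 was low and piglet 88 high within its group, and the difference of 2.00 did not pass the test (SE 0.78, limma adjusted p = 0.317).

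FMO1, which oxidises nitrogen and sulfur atoms of drugs, differed in the opposite direction. Its proximal values were 4.85, 3.63, 4.52 and 4.50 in antibiotics piglets 86, 87, 95 and 98, against 6.82, 5.03, 5.85 and 6.39 in control piglets 83, 88, 89 and 92. The groups did not overlap, and all 4 antibiotics values were at or below the filter level, so that the means, 4.38 ± 0.52 and 6.02 ± 0.78 (SD, n = 4 each), give at least 2.03-fold lower signal with antibiotics (difference -1.65, SE 0.44, limma adjusted p = 0.143). EPHX1, the microsomal hydrolase that opens epoxides left by P450 enzymes, was 7.64, 7.95, 8.06 and 7.54 with antibiotics, against 6.54, 7.09, 5.39 and 7.39 in controls. These groups did not overlap either, although antibiotics piglet 98 and control piglet 92 were close, and the difference was 1.19 (SE 0.35, limma adjusted p = 0.181). With CYP2C49, these were 3 genes whose groups did not overlap, against 3.05% of all tested probe sets. The separation of FMO1 was asked for by the filter, which it passed through control arrays alone.

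The conjugating enzymes did not pass the test in proximal tissue. GSTO1, an omega-class glutathione transferase that also reduces dehydroascorbate, was 13.91 to 14.88 with antibiotics, against 14.02 to 14.43 in controls, and the 95% interval of its difference ran from -0.49 to 0.94. SULT1E1, the oestrogen sulfotransferase, was at or below 3.30 on all 8 proximal arrays and was not compared there.

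**Figure D2:**
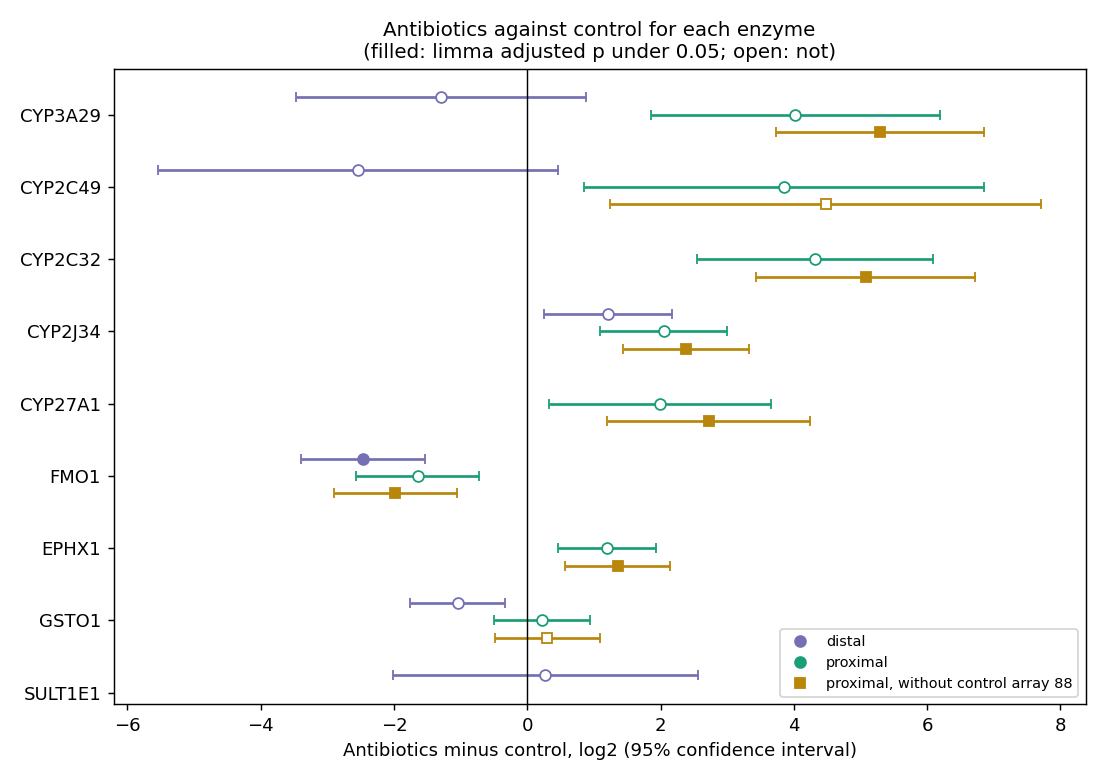
Difference of each enzyme between antibiotics and control groups (x axis, log2, antibiotics minus control, with 95% confidence interval) in distal tissue, in proximal tissue and in proximal tissue without control piglet 88; comparisons in which both groups lay at or below the filter level are left out. Filled symbols passed the limma test: only FMO1 did in distal tissue, none did in proximal tissue over all arrays, and 6 did without piglet 88.

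Control piglet 88 decided the proximal counts. Its proximal array was the highest of the 4 controls for 7 of the 9 enzymes, SULT1E1 included although it was dim in all, and the lowest for FMO1. Without that array 6 of the 9 enzymes were called by limma, 5 higher and 1 lower with antibiotics, against 4.82% of all tested probe sets (2.5% higher and 2.32% lower). FMO1 passed the filter through control arrays alone. With array 88 set aside, CYP2C32 was above the filter level only in antibiotics proximal tissue. The filter thus asked for both of these differences, and no support is drawn from the count of 6. CYP3A29 then differed by 5.29 (SE 0.73, limma adjusted p = 0.00321), with the 3 remaining controls at 9.47 ± 0.26 (SD). CYP2C32 differed by 5.08 (adjusted p = 0.00321), CYP2J34 by 2.38 (adjusted p = 0.00877), FMO1 by -1.98 (adjusted p = 0.0189), CYP27A1 by 2.73 (adjusted p = 0.0427) and EPHX1 by 1.36 (adjusted p = 0.0487). CYP2C49 (4.48, adjusted p = 0.106) and GSTO1 (0.30, adjusted p = 0.718) did not pass. The groups then did not overlap for 6 enzymes, FMO1 and CYP2C32 among them, against 12.6% of all tested probe sets, while CYP27A1 still overlapped through antibiotics piglet 98. Other single arrays mattered less: CYP2J34 was called without antibiotics piglet 98 (2.42, adjusted p = 0.0226, with 0.537% of all probe sets called), and CYP2C32 without antibiotics piglet 87 (5.36, adjusted p = 0.00259, with 0.052% called).

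The mean level of leukocyte markers was also lower with antibiotics in proximal tissue. The mean of 9 annotated neutrophil and macrophage markers of 10 listed was 4.34 to 5.17 in antibiotics proximal tissue, against 5.78 to 7.25 in control proximal tissue, and CD14 was at or below the filter level throughout. S100A9, a calcium-binding protein of neutrophils, was 2.28 to 5.30 with antibiotics, against 8.06, 6.68, 10.91 and 10.51 in control piglets 83, 88, 89 and 92. CD163, a macrophage receptor, was 3.12 to 6.24 with antibiotics, against 8.81, 6.55, 8.03 and 10.94 in the same controls. Over the whole list piglet 88, with a mean of 6.04, lay within the control range and above the 5.78 of piglet 83, although it had the lowest control value of these 2 markers, which were picked from the list after their values were seen. Enterocyte markers also differed between control piglets. In proximal tissue the mean of the 11 annotated ones was 12.33, 13.64, 13.55 and 12.80 in control piglets 83, 88, 89 and 92. With antibiotics it was 13.29 to 14.14. The part of the leukocyte and enterocyte signals in the enzyme differences was not tested.

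**Figure D3:**
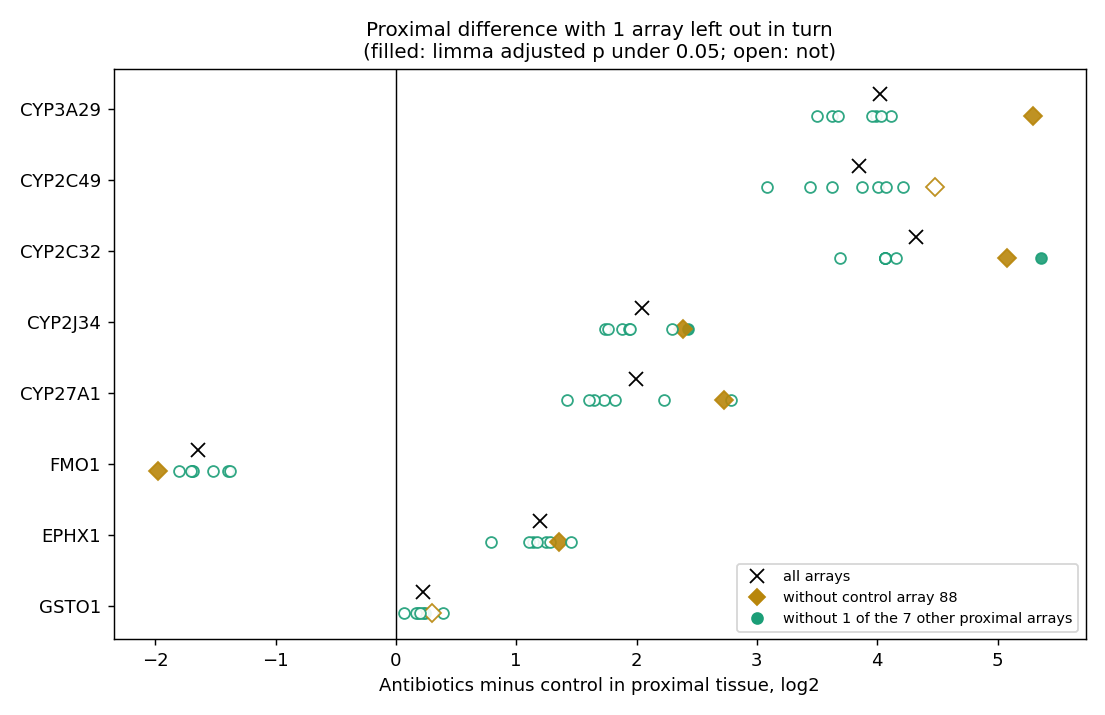
Antibiotics minus control in proximal tissue (x axis, log2) for 8 enzymes when each of the 8 proximal arrays is left out in turn. Circles and diamonds (control piglet 88) are the refitted differences, filled where they passed the limma test, and crosses the values over all arrays; 6 enzymes passed without control piglet 88, and CYP2J34 without antibiotics piglet 98 and CYP2C32 without antibiotics piglet 87 were the other calls.

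In the distal intestine FMO1 was lower with antibiotics, and it was the only one of the 9 enzymes called, against 2.12% of all tested probe sets (1.1% lower). FMO1 read 3.06, 3.95, 3.01 and 3.06 in antibiotics piglets 85, 86, 87 and 95, against 5.70, 5.20, 6.92 and 5.11 in control piglets 83, 88, 89 and 92. Every control was above every antibiotics piglet, and the antibiotics piglets all lay below the filter level. The means were 3.27 ± 0.45 with antibiotics and 5.73 ± 0.83 in controls (SD, n = 4 each), at least 1.66-fold lower signal with antibiotics (difference -2.47, SE 0.44, limma adjusted p = 0.00645). The call was kept in all 8 fits that left out 1 distal array, but FMO1 passed the filter through control arrays alone, so that it had to differ. The mean of the 9 neutrophil and macrophage markers was 3.82 to 4.48 in antibiotics distal tissue, against 5.73 to 7.33 in control distal tissue, and its part in the FMO1 difference was not tested.

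CYP3A29 and CYP2C49 had lower means with antibiotics in distal tissue, and neither passed the test. CYP3A29 was 8.03, 9.58, 8.88 and 10.13 in antibiotics piglets 85, 86, 87 and 95, against 12.14, 10.89, 7.86 and 10.91 in control piglets 83, 88, 89 and 92, with overlapping groups and a difference of -1.30 (SE 1.02, limma adjusted p = 0.597). That lower mean rested on control piglets 83 and 88: the difference was -0.73 without the distal array of piglet 83 and -0.23 without both (adjusted p = 0.951). CYP2C49 was 5.45, 2.44, 2.71 and 8.18 with antibiotics, against 2.73, 9.22, 8.42 and 8.58 in controls (difference -2.54, SE 1.41, limma adjusted p = 0.418). It was -4.04 without piglet 83 (adjusted p = 0.132) and -3.80 without both (adjusted p = 0.161). Control piglet 83 thus combined the highest distal CYP3A29 value with the lowest CYP2C49 value of its group. The probe set shared by 4 CYP2C genes followed CYP2C49, at 3.21, 2.14, 2.34 and 7.46 with antibiotics, against 2.14, 9.17, 7.76 and 7.64 in controls.

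CYP2J34 had the higher mean with antibiotics in distal as in proximal tissue. Its distal values were 13.96, 13.53, 14.10 and 13.60 in antibiotics piglets, against 13.11, 12.53, 12.08 and 12.62 in controls, with no overlap. The difference of 1.21 did not pass the test (SE 0.45, limma adjusted p = 0.191), nor did that of 1.45 without the distal arrays of piglets 83 and 88 (adjusted p = 0.196). CYP2J34 and FMO1, of which the filter asked FMO1 to differ, were the 2 enzymes whose distal groups did not overlap, against 12.7% of all tested probe sets.

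GSTO1 was 12.50, 12.60, 11.16 and 12.48 in distal tissue with antibiotics, against 13.79, 13.34, 12.47 and 13.32 in controls. It overlapped only through control piglet 89, and the difference was -1.04 (SE 0.34, limma adjusted p = 0.127), or -0.71 without control piglets 83 and 88 (adjusted p = 0.384). SULT1E1 was 6.43, 5.17, 5.93 and 4.59 with antibiotics, against 5.46, 9.87, 2.64 and 3.07 in controls, where piglet 88 was far above the others. Its difference was 0.27 (SE 1.08, limma adjusted p = 0.939). With the distal arrays of control piglets 83 and 88 left out together, FMO1 (-2.75, adjusted p = 0.0210) and SULT1E1 (2.68, adjusted p = 0.00773) were called, against 2.76% of all tested probe sets. That step removes the only controls with SULT1E1 above the filter level, so its signal is given only as at least 1.44-fold higher with antibiotics and nothing is read from the call.

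CYP2C32, CYP27A1 and EPHX1 were at or below the filter level on all 8 distal arrays and were not compared there. Of the 6 measurable enzymes 2 had the higher and 4 the lower mean with antibiotics. SULT1E1, counted as higher, was above the filter level in only 2 controls. With low values raised to that level its mean was lower with antibiotics, so its direction is not determined. The median difference over the 9 genes was -0.32, against 0.00 over all tested probe sets. It is the value of CYP27A1, which was not compared there, so nothing is read from it. With low values raised to the filter level the median was -0.70 over the 9 genes, the value of SULT1E1, against 0 over all tested probe sets.

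The antibiotic effect was set against itself between segments, as the distal effect minus the proximal one. No enzyme was called (0 of 9 by limma, 5 at an unadjusted p under 0.05, against 0.191% of all tested probe sets). The largest differences were those of CYP2C49 (-6.39, SE 2.00, adjusted p = 0.407), CYP3A29 (-5.32, SE 1.45, adjusted p = 0.281) and CYP2C32 (-4.32, SE 1.18, adjusted p = 0.281), and the median was -1.40, against 0.08 over all tested probe sets. For CYP2C32 both distal groups were at the lowest value, so its figure is the proximal effect alone. EPHX1, whose value is the median, and CYP27A1 lay below the filter level on all distal arrays. Their distal effects are not determined, and nothing is read from the median. Without the proximal array of control piglet 88, CYP3A29 was called (-6.59, SE 0.99, adjusted p = 0.0118), against 0.381% of all tested probe sets, and CYP2C32 was not (-5.08, adjusted p = 0.0504). Leaving out antibiotics piglet 87 in proximal tissue made CYP2C32 the 1 call instead (-5.36, adjusted p = 0.0127), with 0.13% of all probe sets called. FMO1 (-0.82, SE 0.62) and CYP2J34 (-0.83, SE 0.64), the enzymes with the same direction in both segments, had 95% intervals from -2.13 to 0.49 and from -2.19 to 0.53.

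Both segments of a piglet are not independent, so 1 mean per piglet was also compared, over 3 antibiotics and 4 control piglets. CYP2J34 was higher with antibiotics and was the only enzyme called (1 of 9, against 0.347% of all tested probe sets and 0.121% called higher). It averaged 13.85 ± 0.14 with antibiotics (SD, n = 3) and 12.06 ± 0.39 in controls (SD, n = 4), a difference of 1.79 (SE 0.24, limma adjusted p = 0.0272). All 3 antibiotics piglets were above all 4 controls. The exact two-sided permutation p was 0.0286, the smallest that 3 against 4 allows. The call was held in 1 of the 7 fits that left out 1 piglet, the one without control piglet 88. In the other 6 the difference stayed between 1.66 and 1.85 with adjusted p from 0.0504 to 0.139. FMO1 averaged 3.84 ± 0.54 with antibiotics and 5.88 ± 0.58 in controls, at least 1.84-fold lower. It did not pass over all 7 piglets (limma adjusted p = 0.0682), and of the fits without 1 piglet it passed in the one without control piglet 88 (adjusted p = 0.0198).

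Along the gut of antibiotics piglets, 6 of the 9 enzymes were lower in distal than in proximal tissue: EPHX1, GSTO1, CYP2C32, CYP3A29, CYP2C49 and CYP27A1. Over all tested probe sets 5.25% were called in either direction and 2.1% lower. EPHX1, CYP2C32 and CYP27A1 passed the filter through proximal arrays alone and so had to differ, which leaves GSTO1, CYP3A29 and CYP2C49 as the calls that the filter did not ask for, and no support is drawn from the count of 6. The median difference, distal minus proximal, was -4.16 over the 9 genes, against 0.05 over all tested probe sets. With low values raised to the filter level the medians were -2.23 over the 9 genes and 0.04 over all tested probe sets. The first of these medians over the 9 genes is the value of CYP27A1. Both include the genes that the filter asked to be lower, so no support is drawn from them. The 6 calls were held in all 8 fits that left out 1 array of these groups. The 5′ minus 3′ signal of the array's GAPDH and actin controls, a sign of RNA quality, was -4.22 ± 0.54 in antibiotics distal and -3.52 ± 0.37 in antibiotics proximal tissue (log2, SD, n = 4 each), and with it as a covariate all 6 calls were kept.

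CYP2C49 had the widest gap, with means of 4.70 ± 2.69 in distal and 12.27 ± 0.86 in proximal tissue (SD, n = 4 each; difference -7.58, SE 1.41, limma adjusted p = 0.00483). CYP3A29 averaged 9.16 ± 0.91 in distal and 14.76 ± 0.21 in proximal tissue, a difference of -5.61 (SE 1.02, limma adjusted p = 0.00412), or 48.7-fold on this scale. The CYP2C probe set shared by 4 genes gave -8.67 (95% interval -11.86 to -5.49, adjusted p = 0.0032). For the other P450 genes distal tissue was at or below the filter level, which gives only a bound: CYP2C32 was at least 4.67-fold lower (difference -5.08, adjusted p = 0.00224) and CYP27A1 at least 3.97-fold lower (difference -4.16, adjusted p = 0.00497).

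EPHX1 read 3.15, 3.22, 2.31 and 3.15 in distal tissue of antibiotics piglets 85, 86, 87 and 95, so that it was at least 6.95-fold lower than the proximal mean of 7.80 (difference -4.84, SE 0.35, limma adjusted p = 4.81e-07). GSTO1 averaged 12.18 ± 0.69 in distal and 14.42 ± 0.40 in proximal tissue (difference -2.23, SE 0.34, adjusted p = 0.0011). The groups of both genes were far apart. CYP2J34 averaged 13.80 ± 0.28 in distal and 13.58 ± 0.76 in proximal tissue, and the 95% interval of its difference ran from -0.74 to 1.18. SULT1E1, which passed the filter through distal arrays alone, lay higher in distal tissue. Its distal values of 4.59 to 6.43 were above the proximal values of 2.14 to 3.30 without overlap, at least 1.44-fold higher, but the difference of 2.85 did not pass the test (SE 1.08, adjusted p = 0.166). Together 7 enzymes had groups without overlap, against 12.4% of all tested probe sets. EPHX1, CYP2C32, CYP27A1 and SULT1E1 are among them and passed the filter through arrays of 1 segment alone, so nothing is read from this count.

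In control piglets EPHX1 alone was called lower in distal tissue, 1 of 9, against 0.364% of all tested probe sets in either direction and 0.0433% called lower, although its passing the filter through proximal arrays alone asked for that. EPHX1 was 3.15, 3.20, 3.15 and 3.15 in distal tissue of control piglets 83, 88, 89 and 92, against 6.54, 7.09, 5.39 and 7.39 in their proximal tissue. This is at least 3.04-fold lower (difference -3.44, SE 0.35, limma adjusted p = 4.21e-05). GSTO1 averaged 13.23 ± 0.55 in distal and 14.20 ± 0.17 in proximal tissue without overlap, and the difference of -0.97 did not pass (SE 0.34, adjusted p = 0.355). With EPHX1 these were 2 genes without overlap, against 3.93% of all tested probe sets. CYP3A29 averaged 10.45 ± 1.82 in distal and 10.74 ± 2.55 in proximal tissue (difference -0.29, 95% interval -2.46 to 1.89), and 0.98 without the proximal array of piglet 88. CYP2C49 differed by -1.19 (SE 1.41), and by 0.08 without the distal arrays of piglets 83 and 88. The median over the 9 genes was -0.76, against -0.01 over all tested probe sets. It is the value of CYP2C32, which was at the lowest value of the table on all control arrays but the proximal one of piglet 88. With low values raised to the filter level the medians were -0.29 over the 9 genes and -0.01 over all tested probe sets. The comparisons along the gut use the same arrays as those between treatments, so their values are not independent of them. The difference between treatments in these gradients is the interaction given above, in which 0 of 9 enzymes passed over all arrays.

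**Figure D4:**
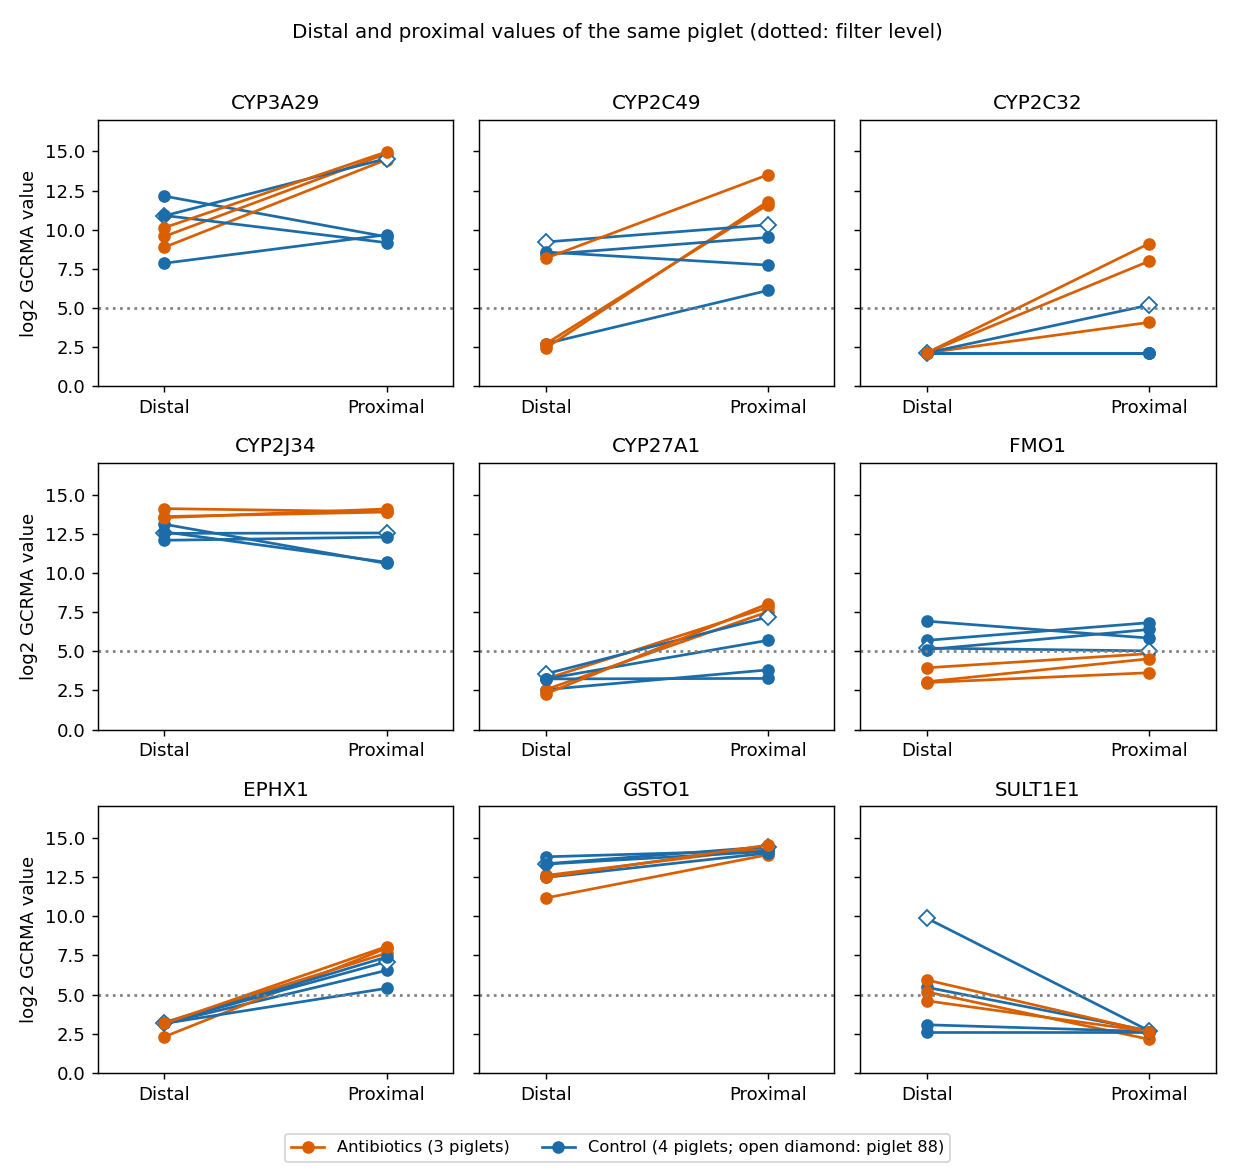
Log2 values of each enzyme in distal and proximal tissue of the 7 piglets with both segments, 3 antibiotics and 4 control, with a line joining the segments of 1 piglet, an open diamond for control piglet 88 and a dotted line at the filter level. For EPHX1 and GSTO1 all 7 lines are lower in distal tissue, while for CYP3A29 this holds for 3 of 3 antibiotics and 2 of 4 control piglets.

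Within single piglets EPHX1 and GSTO1 were lower in the distal segment throughout, and the other enzymes were mixed or too dim to say. EPHX1 was lower in the distal segment of all 7 piglets, with distal minus proximal differences of -5.64 to -4.42 in the 3 antibiotics and -4.24 to -2.24 in the 4 control piglets. EPHX1 and CYP27A1 passed the filter through proximal arrays alone, which asked for lower distal values. Their distal values all lay below the filter level, so the sizes of their differences are not well determined. GSTO1 was lower in all 7 as well, at -2.76 to -1.76 with antibiotics and -1.56 to -0.41 in controls. CYP27A1 was lower, at -5.74 to -4.56, in the 3 antibiotics piglets and at -3.63 and -2.46 in control piglets 88 and 89, while in control piglets 83 and 92 both segments were below the filter level. CYP3A29 was lower in the distal segment, at -5.59 to -4.84, in the 3 antibiotics piglets, while the 4 controls ran between -3.65 and 2.59, with 2 lower and 2 higher. CYP2C49 differed by -9.36 to -5.33 with antibiotics and lay between -3.40 and 0.83 in controls. SULT1E1 was above the filter level in the distal segment of 4 of the 7 piglets (antibiotics piglets 86 and 87 and control piglets 83 and 88) and in no proximal segment.

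Other genes of these pathways were read from 6 lists of 193 genes, of which 82 had a probe set of their own and 54 were tested. In proximal tissue 0 of the 54 were called between antibiotics and control piglets by limma (20 had an unadjusted p under 0.05), with a median difference of 0.50, against -0.07 over all tested probe sets. CYP3A39, a further CYP3A gene, had a proximal difference of 2.29 (adjusted p = 0.155), and CYB5A, the cytochrome that passes electrons to some P450 enzymes, one of 1.09 (adjusted p = 0.121). In distal tissue 2 were lower with antibiotics, 0 were higher and 52 did not pass, against 2.12% of all tested probe sets called and 1.1% called lower. HSD11B1, which regenerates cortisol from cortisone, averaged 8.29 ± 0.26 with antibiotics and 10.41 ± 0.67 in controls (SD, n = 4 each; difference -2.12, SE 0.43, limma adjusted p = 0.0181). MGST1, a membrane-bound glutathione transferase, averaged 11.55 ± 0.53 with antibiotics and 12.85 ± 0.42 in controls (difference -1.30, SE 0.32, adjusted p = 0.0491). GSTA1, a further glutathione transferase named here after its values were seen, did not pass on the probe set that represents it (1.15, adjusted p = 0.521), but its second tested probe set was called higher (2.97, adjusted p = 0.0362). By limma 0 of the 54 were called in the interaction and on piglet means, where 11 and 17 had an unadjusted p under 0.05.

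In antibiotics piglets 10 of the 54 were lower in distal than in proximal tissue, 0 were higher and 44 did not pass, where 5.25% of all tested probe sets were called and 2.1% were called lower. The counts by list that follow have the same background. POR, the reductase that supplies electrons to microsomal P450 enzymes, averaged 6.67 ± 0.41 in distal and 9.02 ± 0.77 in proximal tissue (SD, n = 4 each; difference -2.35, SE 0.41, limma adjusted p = 0.00346). Among further P450 genes, 3 of 5 tested were lower, with CYP2C42 at -3.31 (adjusted p = 0.0085) and CYP3A39 at -2.78 (adjusted p = 0.0154). MGST1 (-1.65, adjusted p = 0.00646) was the 1 of 11 glutathione genes called. Of 20 oxidoreductases and hydrolases 4 were lower, among them HSD11B1 (-1.96, adjusted p = 0.014), the aldo-keto reductase AKR1A1 (-0.97, adjusted p = 0.023) and the retinal dehydrogenase ALDH1A1 (-1.30, adjusted p = 0.0337; -2.95 on its other probe set). UGT2B31, a glucuronosyltransferase, was the 1 of 6 conjugating genes called (-2.81, adjusted p = 0.0268), although its second tested probe set gave -1.25 (adjusted p = 0.542). Of the 7 tested xenobiotic-sensing receptors and regulators 0 were called by limma in any comparison, with 1 or 2 at an unadjusted p under 0.05 in each, and NR1I2, the pregnane X receptor, differed by -1.62 between segments of antibiotics piglets (adjusted p = 0.115). In control piglets 0 of the 54 were called between segments by limma, and 11 had an unadjusted p under 0.05.

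**Figure D5:**
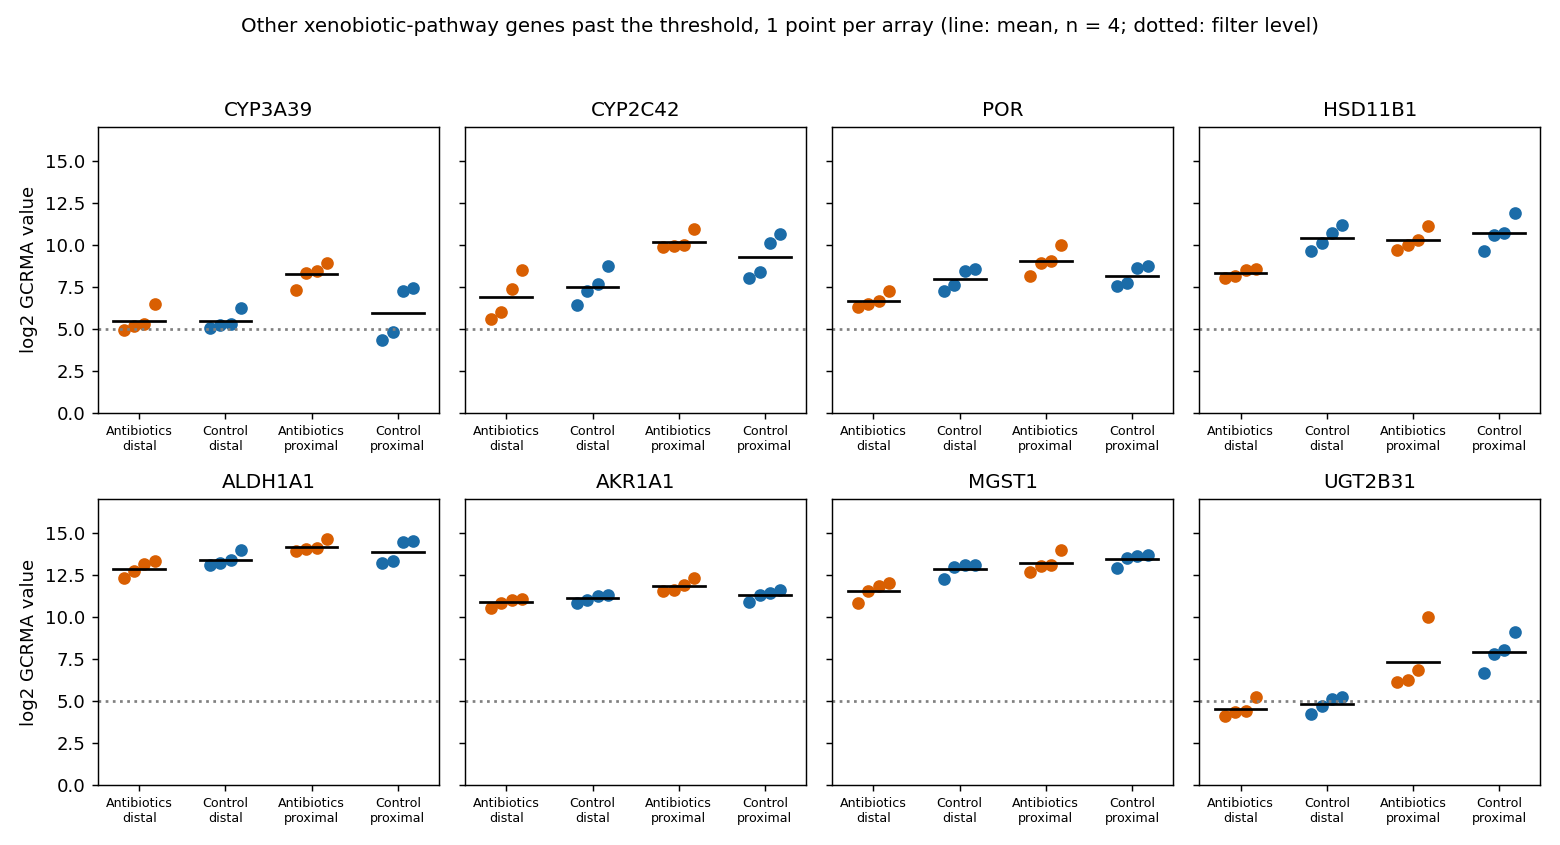
Log2 GCRMA value (y axis) of 8 other pathway genes on each array, by group (x axis); points are arrays, lines group means (n = 4) and the dotted line the filter level. The 4 antibiotics distal arrays of POR, with a mean of 6.67, lie below the 4 antibiotics proximal arrays, with a mean of 9.02.

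Across the 16 arrays, after each group mean was subtracted, the pair of enzymes that moved most alike was CYP2J34 and CYP27A1 (Pearson r = 0.83). CYP3A29 and CYP2J34 had r = 0.53. FMO1 ran against CYP3A29 (r = -0.62) and CYP2J34 (r = -0.57). These are descriptions over 16 arrays of 9 piglets, in which 2 arrays can share a piglet and in which the proximal arrays of piglets 88 and 98 stand far from their groups. CYP2C32 was at the lowest value of the table on every distal array, so its correlations rest on proximal arrays alone. EPHX1 and CYP27A1 lay below the filter level on every distal array, SULT1E1 on every proximal array and FMO1 on every antibiotics array. Of 4675 other genes, those most like CYP3A29 were DLG3 (r = 0.92), ATG12 (0.90) and SNX24 (0.88). Those most like CYP2J34 were SLC7A7 (0.90), ASS1 (0.85) and SEC14L2 (0.84). For CYP27A1 they were FKBP15 (0.88), TRPV6 (0.88) and BRPF1 (0.87), for EPHX1 CCS (0.96), GUCD1 (0.93) and DGUOK (0.92), and for GSTO1 VPS25 (0.90), MED11 (0.89) and NDUFB11 (0.88). For CYP2C49 they were IFT46 (0.87), MVB12B (0.81) and SCAMP3 (0.81), and for CYP2C32 RNASEH1 (0.93), FH (0.88) and POLR3C (0.87). For FMO1 they were TAF4B (0.82), CDK2AP1 (0.81) and SAE1 (0.81), and for SULT1E1 CGREF1 (0.89), POLR3K (0.82) and RPL8 (0.82).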

How the data were processed

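Total RNA of proximal and distal small intestine was labelled with a 3′ IVT kit and hybridised to an Affymetrix porcine array, per the labels' protocols. GCOS 1.2, GCRMA and limma were used, per the submitters' processing notes; their settings are not stated in the labels. The authors deposited log2 values, with a floor at 2.14 and 39.7% of values under 2.5, so the size of a difference that reaches the floor is not well determined.

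Samples were grouped by labelled tissue and treatment. The array's 124 control probe sets among 24123 were dropped; 10069 of the rest named 1 gene, 198 several and 13732 none. Gene names come from GEO's platform annotation. A gene is represented by its probe set with the highest mean among those naming it alone. A model of 4 group means on the 16 arrays was fitted in limma 3.58.1 (R 4.3.3), tested by eBayes and adjusted by Benjamini-Hochberg over the 11538 tested probe sets at 0.05. The code was tested on simulated data. An "at least" fold is the higher mean over the filter level where all arrays of the lower group lie at or below it.

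Named were all 9 enzymes, at most 8 called genes of the pathway lists per comparison by moderated t, and the 3 genes most correlated with each enzyme; CYP3A39, CYB5A, GSTA1 and NR1I2, where not called, and the marker genes were picked after their values were seen. The enzymes and lists were chosen with earlier results of these data known. Pairing of segments rests on the number in the sample names: residuals of a piglet's 2 arrays correlated at 0.0293 to 0.526, above 0.1 for 5 of 7. Alternatives were other filters, normalizations, eBayes settings, array weights, subsets of arrays, an RNA quality covariate and a replicate block (statmod 1.5.0). Figures were drawn with matplotlib 3.10.9.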

Additional observations from a re-analysis of the deposited data

Results flagged for a closer look

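In 6 of the 26 groups of 4 arrays in which an enzyme rose above the filter level, 1 array lay far from the other 3 by Dixon's ratio, which chance alone gives in about 1 group in 20. For CYP2C32 the other 3 arrays share the lowest value of the table, which fixes the ratio, so that group cannot be set against this rate. Values are on the log2 scale. On the proximal array of control piglet 88, CYP3A29 was 14.54, with the other controls at 9.18 to 9.68, and CYP2C32 was 5.19, with the others at 2.14. On the proximal array of antibiotics piglet 98, CYP2J34 was 12.44, with the others at 13.89 to 14.08, and CYP27A1 was 4.61, with the others at 7.52 to 8.03. On the distal array of antibiotics piglet 87, GSTO1 was 11.16, with the others at 12.48 to 12.60. On the distal array of control piglet 83, CYP2C49 was 2.73, with the others at 8.42 to 9.22.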

How the results depend on the processing

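The number of the 9 enzymes called was followed under each alternative. Between segments it was 6 in antibiotics and 1 in control piglets, and it stayed within 1.5 times of that. A replicate block for the piglet, random (correlation 0.172) or fixed, gave the same counts as no block in each comparison it could be fitted to: 1 in distal and 0 in proximal tissue, 0 for the interaction, and 6 and 1 between segments. Between antibiotics and control piglets in distal tissue (1 as reported) the count was 0 with the stricter filter, which leaves out FMO1, 3 with array weights, 2 with only the 8 distal arrays and 2 without control distal arrays 83 and 88, where 2.15%, 14.4%, 3.73% and 2.76% of all probe sets were called. In proximal tissue (0 as reported) it was 1 with renewed quantile normalization (0.199% of all), 1 with equal medians (0.243%), 1 with only piglets that had both segments (0.477%), 6 with array weights (8.24%), and 0 to 6 when single arrays were left out. For the interaction (0) it was 2 with array weights (1.82%) and 0 to 1 with single arrays left out. On piglet means (1) it was 0 with no filter (0.00417%), 3 with array weights (7.99%) and 0 to 2 with single piglets left out. Array weights thus raised the calls over all probe sets as well, and the cause was not tested.

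Some values that did not pass the test changed sign. SULT1E1 in distal tissue was -0.029 with only piglets that had both segments, and ran between -0.60 and 1.81 with single arrays left out; its interaction ran between -0.62 and 1.79 and its difference on piglet means between -0.55 and 0.66. CYP2J34 between segments of antibiotics piglets was -0.11 with array weights, -0.21 with only piglets that had both segments and -0.21 with the fixed replicate block, and ran between -0.16 and 0.39 with single arrays left out. CYP3A29 between segments of controls was 0.58 with array weights and 0.065 with the RNA quality covariate, and ran between -0.85 and 0.98; CYP2C49 there was 0.075 without distal arrays 83 and 88 and ran between -1.95 and 0.31. CYP2C49 on piglet means was -0.29 with array weights and ran between -0.69 and 1.19. Signals at the floor limit CYP2C32, CYP27A1, EPHX1, FMO1 and, between segments, SULT1E1 to bounds.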
